A study of Mus musculus with 12 samples.

Results

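The genes described here are 10 markers of T cells, NK cells and leukocytes in mouse liver, namely the CD3 chain genes Cd3e, Cd3g and Cd3d, the coreceptor genes Cd4, Cd8a and Cd8b1, the cytotoxic granule genes Nkg7, Gzma and Gzmb, and Ptprc, which encodes the leukocyte surface phosphatase CD45. They were chosen by name, with earlier results of these data known, and make up 10 of 22609 gene symbols measured. The RNA came from whole liver of male C57BL/6 mice aged 8 weeks, which were wild type, knockout or, in the case of 1 library, heterozygous for TRIM21, a cytosolic ubiquitin ligase and antibody receptor. Each mouse had received PBS or 200 mg/kg of the liver carcinogen diethylnitrosamine (DEN) in PBS by the intraperitoneal route, and liver was collected 48 h afterwards. PBS was given in 3 wild-type libraries (PBSWT_541, PBSWT_542, PBSWT_545) and 3 knockout libraries (PBSKO_154, PBSKO_544, PBSKO_549). DEN was given in 3 of wild type (DENWT_307, DENWT_995, DENWT_996), 2 of knockout (DENKO_141, DENKO_309) and 1 labelled TRIM21+/- (DENHET_136). How the knockout allele was made, and in which cells it acts, is not given in the sources used here. Whether every library is its own mouse is not stated by the titles, which only number them, and p-values therefore describe the variation among these libraries.

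T cells carry an antigen receptor whose signal is passed on by the CD3 chains, and their coreceptors divide them into CD4+ cells, which bind MHC class II, and CD8+ cells, which bind MHC class I. Cytotoxic T cells and NK cells kill targets with granules that hold granzymes, among them the proteases granzyme A (Gzma) and granzyme B (Gzmb), and with the granule membrane protein NKG7. The liver is known for its resident NK cells, unconventional T cells and Kupffer cells, which are its macrophages. CD45 is found on nearly all leukocytes, so Ptprc alone does not mark T or NK cells.

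Gene counts totalled 17303124 to 23059252 per library, so a single count was worth 0.0340 to 0.0670 CPM (counts divided by library size, with sizes scaled by edgeR's TMM method). Reads of the 9 markers other than Ptprc were few, and together they came to 25 to 209 counts per library. For a count of 2 the exact 95% interval runs from 0.242 to 7.22 counts, which covers counting error only. Trim21 itself had 3 to 5 counts in the knockout libraries and 93 to 225 in the wild-type libraries, whereas the library labelled TRIM21+/- had 7, which goes against its label. Its values are therefore given beside the others and enter no test. In RNA from whole tissue, fewer cells of a type and less RNA per cell cannot be told apart.

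To be tested, a gene had to reach 0.469 CPM, the level of 10 counts at the median library size, in at least 2 of the 11 libraries of the 4 full groups. This left 13255 genes and 8 of the 10 markers, with Cd3d and Cd8b1 outside. Cd8a reached that level in 1 PBS wild-type library and both DEN knockout libraries, and so passed through the group where it was highest. Nkg7 and Gzma reached it in 2 libraries of each group but DEN wild type, in which no library did. Cd3e reached it in 2 PBS wild-type libraries and 1 PBS knockout library only. It thus passed through the PBS groups, where it was highest. Gzmb reached it in 1 PBS wild-type, 2 PBS knockout and 1 DEN knockout library, and Cd3g in 1 PBS wild-type and 1 DEN knockout library. For this filter CPM was taken on library totals, without TMM. Another fit without this filter held 17587 genes and all 10 markers, and it is quoted for Cd3d and Cd8b1 and for counts over the whole set. All 10 markers had at least 1 count in each of the 12 libraries.

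Levels can be set side by side between genes only per length of transcript, here as mean CPM per kilobase of the longest principal transcript. In PBS wild-type liver Cd4 stood highest at 1.48 CPM per kilobase, followed by Ptprc at 1.20, Nkg7 at 0.689 and Gzma at 0.595. The CD3 chains lay at 0.353 for Cd3e, 0.457 for Cd3g and 0.218 for Cd3d. Cd8a, at 0.110, was the lowest of the set on this scale. In DEN knockout liver the order differed, with Ptprc at 2.59 CPM per kilobase, Nkg7 at 0.824 and Gzma at 0.814 ahead of Cd8b1 at 0.320, Cd8a at 0.281 and Cd4 at 0.213.

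**Figure D1:**
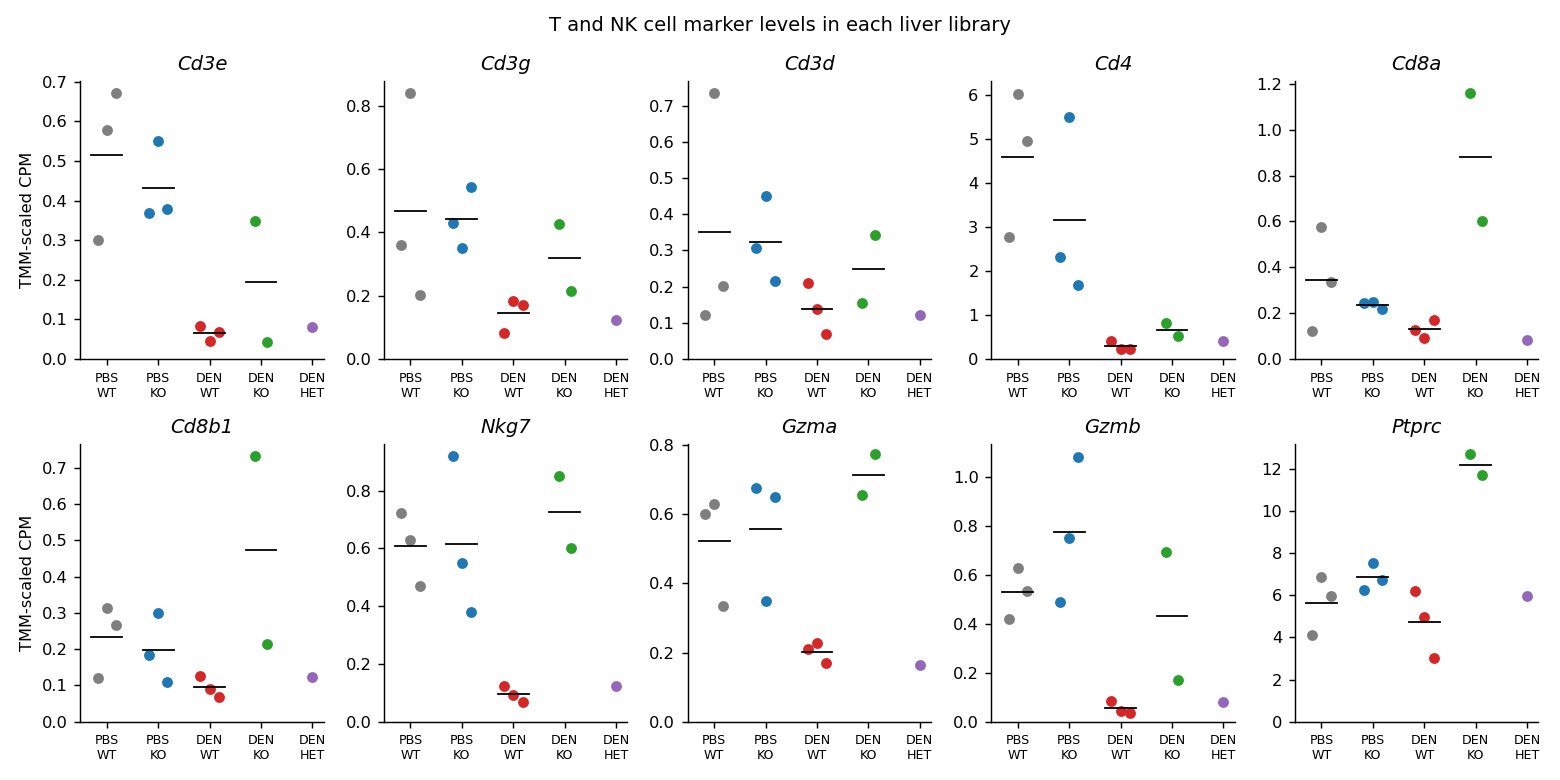
Each panel plots 1 marker gene, with a point for each library, the level in TMM-scaled CPM on the vertical axis (from 0) and the groups along the horizontal axis, where lines mark group means. DEN wild type has the lowest mean of the 4 full groups in all 10 panels, while both DEN knockout points of Cd8a and of Ptprc (11.7 and 12.7 CPM) lie above all others.

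DEN was first compared with PBS in wild-type liver. Cd3e, Cd3g, Cd4 and the 3 granule genes fell after DEN, Cd4 with the widest fold change, whereas Cd3d, Cd8a, Cd8b1 and Ptprc did not pass. Of the 10 markers, 6 fell (Cd3e, Cd3g, Cd4, Nkg7, Gzma and Gzmb) and none rose, in a comparison where 26.7% of all tested genes fell and 29.2% rose. In the fit with all 10 markers the count was the same, against 19.5% of genes. The groups did not overlap for the same 6 markers, against 30.7% of tested genes lower without overlap. All 10 values were negative, with a median log2 fold change of −1.54 beside 0.09 over all genes of that fit.

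Among the CD3 chains, Cd3e, which encodes the epsilon chain, had counts of 5, 11 and 10 in PBS wild type and of 2, 1 and 2 in DEN wild type, here and below in the order in which the libraries are listed above. Every PBS value lay above every DEN value. The mean fell from 0.516 ± 0.192 to 0.0658 ± 0.0190 CPM (SD, n = 3 and 3), or by −2.85 ± 0.70 (SE) on the log2 scale, with an adjusted p of 0.0036 in edgeR's quasi-likelihood test. Cd3g, the gamma chain gene, went from 6, 16 and 3 counts to 2, 4 and 5. Its DEN libraries were lower in CPM without overlap, although PBSWT_545 came close at 3 counts. Its log2 fold change was −1.68 ± 0.60 (edgeR adjusted p = 0.029), a call that was lost without DENWT_307, DENWT_996 or PBSWT_542, with adjusted p up to 0.27. Cd3d, the delta chain gene, had 2, 14 and 3 counts under PBS and 5, 3 and 2 under DEN, which overlapped, at −1.40 ± 0.72 in the fit without the filter (edgeR adjusted p = 0.14).

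Of the coreceptors, Cd4 had 46, 115 and 74 counts in PBS wild-type liver and 10, 5 and 7 after DEN. The lowest PBS library was far above the highest DEN library. Its mean fell from 4.59 ± 1.67 to 0.295 ± 0.107 CPM (SD, n = 3 and 3), 15.4-fold, and the log2 value was −3.94 ± 0.52 (SE, edgeR adjusted p = 4.4e-05). The CD8 alpha chain gene Cd8a had 2, 11 and 5 counts under PBS and 3, 2 and 5 under DEN. These values overlapped, and the log2 fold change of −1.37 ± 0.62 did not pass (edgeR adjusted p = 0.076). Cd8b1, the CD8 beta chain gene, with 2, 6 and 4 counts against 3, 2 and 2, stood at −1.28 ± 0.77 in the fit without the filter (edgeR adjusted p = 0.2).

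The cytotoxic granule genes are shown with their promoters because all 3 of them fell in this comparison and were higher in the knockout under DEN, as described further on. RefSeq's table for GRCm38.p6 has a promoter for 8 of the 10 markers, and not for Cd4 and Cd8b1. Ptprc has 2 promoters there, and a motif is given for Ptprc if it occurred in either. In the 250 bases before each gene's start, 4 short motifs known from lymphocyte genes were searched on both strands. These were the ETS letters AGGAAG, in 29.5% of 32851 promoters of that length, the RUNX letters TGTGGT, in 14%, the E-box letters CAGNTG, in 44.8%, and the GATA letters AGATAA, in 9.99%. The RUNX letters occurred in the promoters of 3 of these 8 genes, Nkg7, Gzma and Gzmb, and overlapped no other motif there. Capitals mark these letters, which read ACCACA where they lie on the opposite strand. A match is a description of the sequence and not evidence of a bound site. The 3 sequences run 5′ to 3′ on the strand of the gene, and their positions are chr7:43436888-43437137 (plus strand) for Nkg7, chr13:113100982-113101231 (minus strand) for Gzma and chr14:56262335-56262584 (minus strand) for Gzmb.
Nkg7: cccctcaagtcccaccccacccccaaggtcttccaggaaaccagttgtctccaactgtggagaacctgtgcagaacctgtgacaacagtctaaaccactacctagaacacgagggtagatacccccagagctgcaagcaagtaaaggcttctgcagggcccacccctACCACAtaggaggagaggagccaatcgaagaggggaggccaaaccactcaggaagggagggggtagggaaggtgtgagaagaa
Gzma: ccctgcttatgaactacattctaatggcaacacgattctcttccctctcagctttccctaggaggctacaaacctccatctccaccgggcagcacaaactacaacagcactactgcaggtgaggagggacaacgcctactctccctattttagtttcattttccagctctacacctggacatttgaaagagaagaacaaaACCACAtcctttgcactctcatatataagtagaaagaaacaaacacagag
Gzmb: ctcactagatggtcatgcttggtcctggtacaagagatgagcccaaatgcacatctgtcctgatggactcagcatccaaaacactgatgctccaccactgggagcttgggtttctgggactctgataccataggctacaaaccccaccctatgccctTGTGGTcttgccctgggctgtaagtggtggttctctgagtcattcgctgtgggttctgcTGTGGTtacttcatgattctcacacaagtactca
The letters begin 83 bases before the start in Nkg7, 50 in Gzma, and 93 and 34 in Gzmb. The E-box letters occurred in all 3 of these promoters as well, and in those of Cd3g, Cd3d and Ptprc. The ETS letters occurred in the promoters of Cd3e, Cd3d, Nkg7 and Ptprc, and the GATA letters in those of Cd3g and Ptprc. Whether any of these motifs goes with the responses was not tested.

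Nkg7 had 12, 12 and 7 counts in PBS wild-type liver and 3, 2 and 2 after DEN. There was no overlap, and the mean went from 0.607 ± 0.128 to 0.0950 ± 0.0289 CPM (SD, n = 3 and 3). The log2 fold change was −2.63 ± 0.54 (SE, edgeR adjusted p = 0.001). The granzyme B gene Gzmb had 7, 12 and 8 counts under PBS and 2, 1 and 1 under DEN, again without overlap. It fell by 3.18 ± 0.71 on the log2 scale (edgeR adjusted p = 0.002), from 0.529 ± 0.105 to 0.0545 ± 0.0259 CPM (SD, n = 3 and 3). Gzma, at 10, 12 and 5 counts against 5, 5 and 5, fell by 1.37 ± 0.46 (edgeR adjusted p = 0.021), and its groups did not overlap in CPM either. The Gzma call was lost without DENWT_996, PBSWT_541 or PBSWT_542, with adjusted p up to 0.083.

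Ptprc had 68, 131 and 89 counts in PBS wild-type liver and 148, 109 and 89 after DEN. In CPM, which takes the larger scaled size of the DEN libraries into account, these were 5.64 ± 1.42 and 4.73 ± 1.60 (SD, n = 3 and 3), and the groups overlapped. The log2 fold change was −0.26 ± 0.25 (SE, edgeR adjusted p = 0.4). With library totals in place of the TMM scaling it turned to 0.205, and the median of all tested genes moved up by 0.483 with it. The calls of Cd3g and Gzma were lost with that scaling, so that 4 of the 10 markers fell. In that fit 66% of all tested genes were called in either direction, against 55.8% in the main fit.

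**Figure D2:**
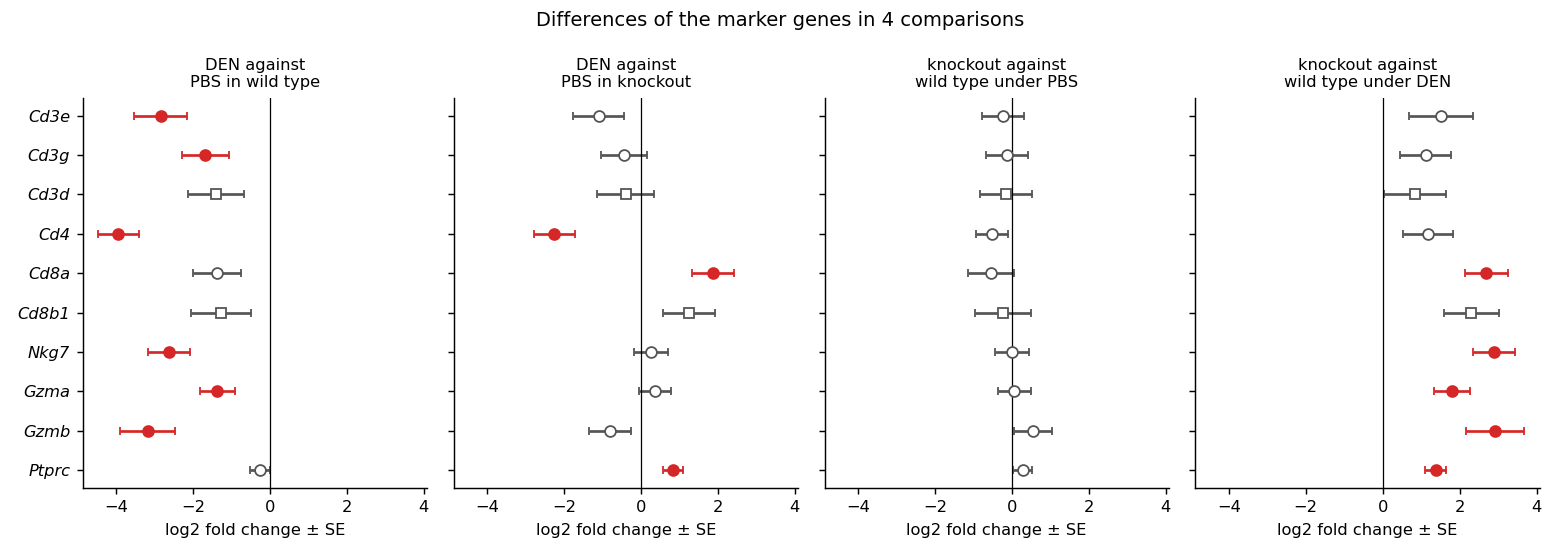
Log2 fold changes with bars of 1 SE are plotted for the 10 markers in 4 comparisons, where filled red circles passed at an adjusted p under 0.05, open circles did not, and open squares (Cd3d, Cd8b1) come from the fit without the filter. In wild type 6 markers lie to the left of 0 as filled circles, and under DEN 5 markers lie to the right of 0 as filled circles for the knockout against wild type.

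Knockout liver was examined next, with 2 DEN and 3 PBS libraries. Here Cd8a and Ptprc rose, Cd4 fell, and the values of the other markers did not pass. The 2 rises stand against 12% of tested genes higher and the fall against 10.7% lower. The fit with all 10 markers gave the same 2 rises and 1 fall, against 8.67% and 7.25% of genes. The DEN groups lay wholly above the PBS groups for 2 markers and wholly below for 2 (Cd3e and Cd4), against 27.7% and 23.8% of tested genes. The median over the 10 markers was −0.07, with 5 positive and 5 negative values, beside 0.0043 over all genes of that fit.

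Cd8a had 4, 5 and 4 counts in PBS knockout liver and 30 and 14 after DEN. Both DEN libraries lay above all PBS libraries, although DENKO_141 was well above DENKO_309. The mean rose from 0.237 ± 0.0180 (SD, n = 3) to 0.880 ± 0.394 CPM (SD, n = 2), with a log2 value of 1.88 ± 0.55 (SE, edgeR adjusted p = 0.027). This call was lost without DENKO_141, PBSKO_154, PBSKO_544 or PBSKO_549, with adjusted p up to 0.23, and in DESeq2. Cd8b1 had 3, 6 and 2 counts against 19 and 5, overlapping in DENKO_309, at 1.25 ± 0.68 in the fit without the filter (edgeR adjusted p = 0.24).

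Cd4 went from 38, 110 and 31 counts in PBS knockout liver to 21 and 12. Its DEN libraries were both below the PBS libraries, at 0.663 ± 0.209 (SD, n = 2) against 3.17 ± 2.04 CPM (SD, n = 3). It fell by 2.25 ± 0.54 on the log2 scale (SE, edgeR adjusted p = 0.011), and the call was lost without DENKO_309 (adjusted p = 0.12). Cd4 and Cd8a thus moved in opposite directions in the same libraries. Ptprc rose from 102, 151 and 124 counts to 329 and 272, without overlap. The means were 6.84 ± 0.657 (SD, n = 3) and 12.2 ± 0.719 CPM (SD, n = 2), with a log2 fold change of 0.83 ± 0.27 (edgeR adjusted p = 0.039). In 6 of the 11 leave-one-out fits that call was lost (largest adjusted p 0.16).

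The CD3 and granule genes in knockout liver did not pass. Cd3e had 6, 11 and 7 counts under PBS and 9 and 1 under DEN, at −1.09 ± 0.66 (edgeR adjusted p = 0.26). The 2 DEN libraries differed widely for this gene, and without DENKO_141 its value was −3.18 and passed (adjusted p = 0.048). Cd3g (−0.43 ± 0.60, adjusted p = 0.65) and, without the filter, Cd3d (−0.40 ± 0.75, adjusted p = 0.8) lay nearer to 0. Nkg7 had 15, 11 and 7 counts against 22 and 14, with a value of 0.26 ± 0.44 (edgeR adjusted p = 0.72). Gzma, with 11, 7 and 12 against 17 and 18 counts, stood at 0.37 ± 0.42 (edgeR adjusted p = 0.57). Gzmb, with 8, 15 and 20 counts against 18 and 4, stood at −0.81 ± 0.54 (edgeR adjusted p = 0.31). All 3 granule genes overlapped between PBS and DEN knockout libraries.

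Averaged over both genotypes, the DEN response was lower for 5 markers, Cd3e, Cd3g, Cd4, Nkg7 and Gzmb, against 26.6% of tested genes lower. Their mean log2 fold changes ran from −3.10 for Cd4 to −1.06 for Cd3g (edgeR adjusted p = 0.049), and without the filter Cd3g no longer passed, which left 4, against 19.8% of genes lower. Under PBS the knockout and wild-type livers were then compared. No marker was called and none had an unadjusted p under 0.05 in edgeR, nor was any called in DESeq2 or limma-voom, where each tool called 1 gene in all. In edgeR 0.00754% of tested genes were called, which was Trim21, and 508 genes had an unadjusted p under 0.05. The widest differences were 0.55 ± 0.50 for Gzmb, −0.55 ± 0.60 for Cd8a and −0.52 ± 0.41 for Cd4 on the log2 scale (edgeR adjusted p = 1 for each). None of the 10 markers separated the 2 PBS groups without overlap, against 3.7% of tested genes higher and 4.41% lower without overlap. Ptprc was at 5.64 ± 1.42 CPM in wild type and 6.84 ± 0.657 CPM in knockout (SD, n = 3 and 3), and Nkg7 at 0.607 ± 0.128 and 0.617 ± 0.276 CPM.

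After DEN the genotypes differed. Cytotoxic granule genes, Cd8a and Ptprc were higher in DEN knockout than in DEN wild-type liver, by 2.60-fold for Ptprc to 7.58-fold for Gzmb, while the CD3 chains and Cd4 did not pass. That made 5 of the 10 markers higher and none lower, against 12.2% of tested genes higher and 9.85% lower. With all 10 markers in the fit, Cd8b1 joined them and 6 were higher, against 8.66% of genes. For 8 markers, all but Cd3e and Cd3d, both knockout libraries lay above the 3 wild-type libraries, against 28.6% of tested genes. The median over the 10 markers was 1.67, beside 0 over all genes of that fit. This comparison shares its DEN wild-type libraries with the first one, so the values of the 2 comparisons are not independent. Without DENKO_141 none of the 5 markers was called, and 1.76% of tested genes were. Without DENWT_996 there were 3 (Cd8a, Nkg7 and Ptprc), with 9.8% of tested genes called in all, and without DENKO_309 there were 4, with 13.1% called in all.

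Nkg7 had 3, 2 and 2 counts in DEN wild-type liver and 22 and 14 in DEN knockout liver. Both knockout libraries were clear of all 3 wild-type libraries. In CPM the means were 0.0950 ± 0.0289 (SD, n = 3) and 0.726 ± 0.175 (SD, n = 2), and the log2 difference was 2.89 ± 0.54 (SE, edgeR adjusted p = 0.0043). Gzma, at 5 counts in each wild-type library against 17 and 18, differed by 1.81 ± 0.46 (edgeR adjusted p = 0.016). Its knockout libraries were nearly alike, at 0.715 ± 0.0827 CPM (SD, n = 2) against 0.203 ± 0.0299 CPM (SD, n = 3). Gzmb, with 2, 1 and 1 counts against 18 and 4, differed by 2.92 ± 0.75 (edgeR adjusted p = 0.017). Its 2 knockout libraries were unlike each other, and without DENKO_141 the value was 1.58 (adjusted p = 0.34).

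For the coreceptors, Cd8a had 3, 2 and 5 counts in DEN wild-type liver and 30 and 14 in DEN knockout liver, without overlap. The means of 0.129 ± 0.0394 (SD, n = 3) and 0.880 ± 0.394 CPM (SD, n = 2) gave a log2 difference of 2.70 ± 0.57 (SE, edgeR adjusted p = 0.007). Cd8b1 had 3, 2 and 2 counts against 19 and 5, and in the fit without the filter it was higher by 2.30 ± 0.72 (edgeR adjusted p = 0.036). Cd4, with 10, 5 and 7 counts against 21 and 12, was separated without overlap but did not pass, at 1.18 ± 0.65 (edgeR adjusted p = 0.21). Its knockout level of 0.663 CPM remained below every PBS library. The calls of Cd8a, Nkg7 and Ptprc were each lost without DENKO_141 alone, with adjusted p of 0.12, 0.069 and 0.068. Those of Gzma and Gzmb were lost without DENWT_996 as well, and that of Gzma without DENKO_309.

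None of the CD3 chains passed in this comparison. Cd3e had 2, 1 and 2 counts in DEN wild-type liver and 9 and 1 in DEN knockout liver, so DENKO_309 lay at the wild-type level. Its value of 1.52 ± 0.84 did not pass (edgeR adjusted p = 0.2) and turned to −0.565 without DENKO_141. Cd3g, with 2, 4 and 5 counts against 11 and 5, stood at 1.12 ± 0.67 (edgeR adjusted p = 0.24), and Cd3d, with 5, 3 and 2 against 4 and 8, at 0.85 ± 0.80 in the fit without the filter (edgeR adjusted p = 0.53). Ptprc was the best counted of the set, with 148, 109 and 89 counts against 329 and 272. Its libraries did not overlap, at 4.73 ± 1.60 (SD, n = 3) and 12.2 ± 0.719 CPM (SD, n = 2), and it was higher by 1.38 ± 0.27 (edgeR adjusted p = 0.0049).

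Summing the counts by role gives a view with less counting error. The CD3 chains together had 13, 41 and 16 counts in PBS wild type, 18, 27 and 21 in PBS knockout, 9, 8 and 9 in DEN wild type and 24 and 14 in DEN knockout. The DEN wild-type sums, 0.306 to 0.376 CPM, were below every library of the 3 other full groups. The granule genes together had 29, 36 and 20 counts in PBS wild type, 34, 33 and 39 in PBS knockout, 10, 8 and 8 in DEN wild type and 57 and 36 in DEN knockout. In CPM, DEN knockout at 1.55 to 2.20 overlapped the PBS range of 1.34 to 2.11, and DEN wild type at 0.272 to 0.418 lay far below both. For the granule genes the exact 95% counting interval of the highest DEN wild-type library ended at 0.769 CPM, below the start of the lowest PBS or DEN knockout interval at 0.819 CPM.

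**Figure D3:**
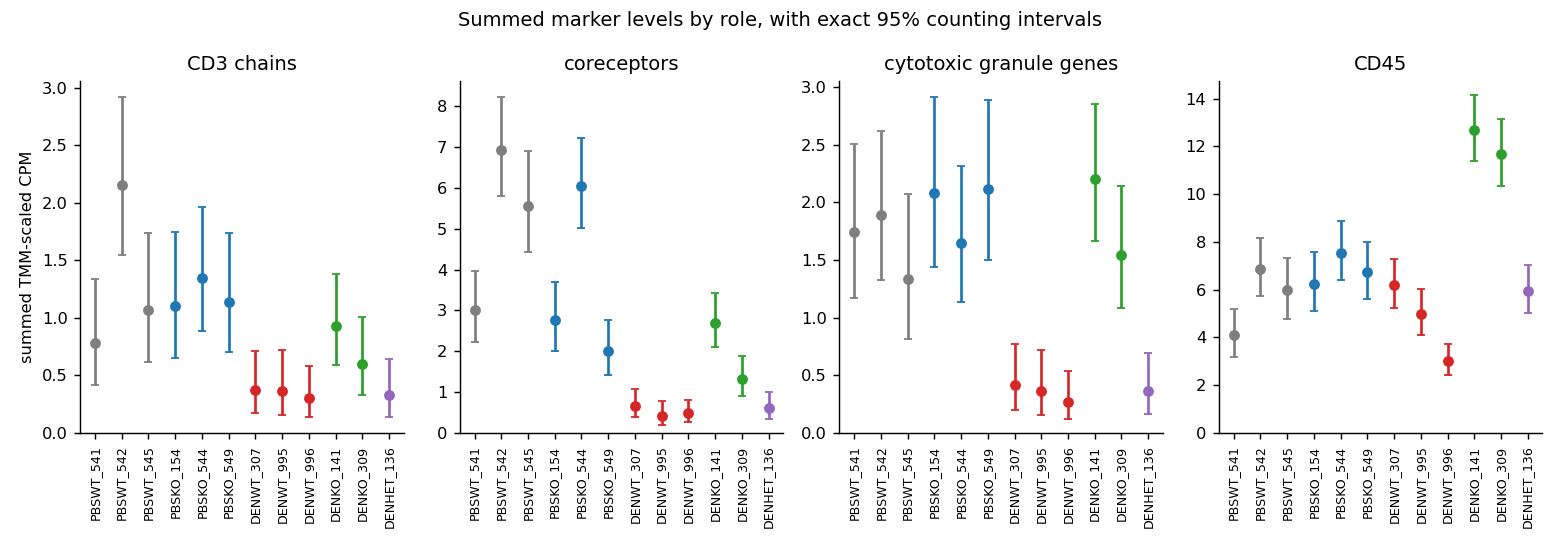
Summed TMM-scaled CPM per library is plotted for the CD3 chains, the coreceptors, the cytotoxic granule genes and CD45 (Ptprc), with bars for the exact 95% counting interval and colours for the groups. In the granule panel the 3 DEN wild-type libraries lie at 0.272 to 0.418 CPM and the 2 DEN knockout libraries at 1.55 to 2.20 CPM, and in the CD45 panel DEN knockout lies above all other libraries.

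The interaction asks whether the DEN response of the knockout differed from that of the wild type. It passed for 2 of the 10 markers, Cd8a and Nkg7, both higher, against 4.07% of tested genes higher and 2.5% lower. In the fit with all 10 markers the same 2 passed, against 3.05% of genes. The median over the 10 markers was 1.75, beside −0.02 over all genes of that fit. Cd8a had a response of −1.37 in wild type and 1.88 in knockout, a log2 difference of 3.25 ± 0.83 (SE, edgeR adjusted p = 0.037). Nkg7 had −2.63 and 0.26, a difference of 2.89 ± 0.70 (SE, edgeR adjusted p = 0.032). The other tested markers had positive values that did not pass, at 1.10 ± 0.37 for Ptprc (edgeR adjusted p = 0.088), 1.74 ± 0.62 for Gzma (0.11) and 2.37 ± 0.92 for Gzmb (0.13). For Cd4, Cd3e and Cd3g the adjusted p was 0.19, 0.29 and 0.38. Both calls depended on single libraries and on the tool. Of the 11 leave-one-out fits, Nkg7 passed in 6 and Cd8a in 2 (largest adjusted p 0.17 and 0.2). Neither passed without DENKO_141, DENWT_996, PBSWT_542 or PBSWT_545, DESeq2 gave no adjusted p for either, and limma-voom called Nkg7 alone.

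Ranked by group mean, the markers fell into 4 orders. Cd3e, Cd3g, Cd3d and Cd4 ran from PBS wild type through PBS knockout and DEN knockout to DEN wild type. For these 4 the 2 PBS groups overlapped. DEN knockout was clear of both neighbours for Cd4, clear of PBS knockout alone for Cd3e, clear of DEN wild type alone for Cd3g, and of neither for Cd3d. Cd8a and Cd8b1 ran from DEN knockout through PBS wild type and PBS knockout to DEN wild type. DEN knockout was clear of PBS wild type, and PBS knockout of DEN wild type, for Cd8a, but all neighbours overlapped for Cd8b1. Nkg7, Gzma and Ptprc ran from DEN knockout through PBS knockout and PBS wild type to DEN wild type. DEN wild type was clear of PBS wild type for Nkg7 and Gzma, while for Ptprc the only gap was between DEN knockout and PBS knockout. Gzmb ran from PBS knockout through PBS wild type and DEN knockout to DEN wild type, with a gap only before the last. DEN wild type was the lowest of the 4 groups for all 10 markers.

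The library labelled TRIM21+/- had 2 counts of Cd3e, 3 of Cd3g, 3 of Cd3d, 10 of Cd4, 2 of Cd8a and 3 of Cd8b1. It had 3 counts of Nkg7, 4 of Gzma, 2 of Gzmb and 146 of Ptprc. In CPM it lay within the range of the DEN wild-type libraries for 8 markers and below them for Cd8a and Gzma. It was below both DEN knockout libraries for 9 markers, all but Cd3e. With 7 Trim21 counts and marker levels near those of DEN wild type, it stands with the knockouts by the targeted gene and with the wild types by these markers.

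Further genes of T and NK cells, and markers of other cells, were read from lists. Their counts stand beside 26.7% of all tested genes lower and 29.2% higher with DEN in wild type, 12% higher and 10.7% lower in knockout, 12.2% higher and 9.85% lower in the knockout under DEN, and 4.07% higher and 2.5% lower in the interaction. The median log2 fold change over all tested genes was 0.04 in wild type and 0.01 for the knockout against wild type under DEN. In the knockout against wild type under DEN, 54 genes of the lists given here and below were called, and 5 of them without DENKO_141, 28 without DENKO_309 and 23 without DENWT_996, all with their sign kept. Of 39 genes of T cell receptor signalling and the T cell surface, 34 were among the symbols measured and 16 were tested. In wild type 6 of them fell after DEN and none rose, but with library totals in place of TMM none fell and 1 rose, and without DENWT_996 1 fell. In knockout 3 rose and 1 fell, near the shares of all tested genes. Under DEN 4 were higher in the knockout and none lower, and without DENKO_141 none was called. The list's median was −0.76 in wild type and 0.96 between genotypes under DEN. Thy1, a surface glycoprotein of mouse T cells, fell by 1.38 ± 0.43 in wild type (edgeR adjusted p = 0.015) and was 1.5 ± 0.45 higher in the knockout under DEN (edgeR adjusted p = 0.031). Rasgrp1, which activates Ras after receptor engagement, fell by 1.43 ± 0.43 in wild type (edgeR adjusted p = 0.012). The adaptor genes Fyb and Lcp2 were higher in the knockout under DEN by 1.61 ± 0.40 and 1.29 ± 0.37 (edgeR adjusted p = 0.014 and 0.025).

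Of 16 T and NK lineage transcription factors 7 were tested, of which 1 rose and 1 fell in wild type, 1 fell in knockout, and 2 were higher in the knockout under DEN. Their medians were −0.58 in wild type and 0.17 between genotypes under DEN. Tox, a factor of T cell development, fell by 1.90 ± 0.56 in wild type (edgeR adjusted p = 0.014) and fell by 2.48 ± 0.71 in knockout (edgeR adjusted p = 0.03). Runx3, a RUNX factor of CD8+ T cells and NK cells, was 2.17 ± 0.67 higher in the knockout under DEN (edgeR adjusted p = 0.034), and Ikzf1, the lymphoid factor Ikaros, 1.11 ± 0.33 higher (edgeR adjusted p = 0.029). Counts of Runx3 were 20 and 11 in DEN knockout and at most 7 in each library of the other full groups. It thus passed the filter through DEN knockout alone, the group where it was highest. Zbtb7b, a factor of the CD4+ lineage, rose by 0.46 ± 0.13 in wild type (edgeR adjusted p = 0.0084). It stood at 97.0 ± 5.23 CPM in PBS wild type and 133 ± 10.2 CPM in DEN wild type (SD, n = 3 and 3). Cd4 was at 4.59 CPM in PBS wild type, and transcript length is not taken into account here. Which cells carried Zbtb7b was not tested. The fall of Tox in wild type was lost with library totals, its fall in knockout without DENKO_141 or DENKO_309, and the calls of Runx3 and Ikzf1 without DENKO_141, DENKO_309 or DENWT_996.

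Of 27 NK cell receptor genes 6 were tested, and Klra4 was at 0 in all libraries. In wild type 4 of them fell after DEN, in knockout none passed, and under DEN 5 were higher in the knockout. The medians were −1.57 in wild type and 1.92 between genotypes under DEN. Il2rb, the beta chain of the interleukin 2 and interleukin 15 receptors, fell by 1.41 ± 0.34 in wild type (edgeR adjusted p = 0.0031) and was 1.67 ± 0.35 higher in the knockout under DEN (edgeR adjusted p = 0.007). Its counts were 23, 30 and 39 in PBS wild type, 20, 12 and 20 in DEN wild type and 70 and 39 in DEN knockout. Klrb1c, which encodes the classical NK cell antigen of C57BL/6 mice, had 14, 5 and 6 counts in PBS wild type, 5, 3 and 1 in DEN wild type and 17 and 13 in DEN knockout. It fell by 1.98 ± 0.62 in wild type (edgeR adjusted p = 0.015) and was 2.28 ± 0.63 higher in the knockout under DEN (edgeR adjusted p = 0.022). Klrk1, the NKG2D receptor gene, differed by −1.73 ± 0.55 and 1.89 ± 0.57 in these comparisons (edgeR adjusted p = 0.016 and 0.031). No NK receptor gene passed in the interaction. With library totals 3 fell in wild type and 2 rose in knockout, without DENWT_996 2 fell in wild type, and under DEN none was higher in the knockout without DENKO_141 and 1 without DENWT_996.

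The other effector genes did not move as 1 group. Of 17 genes 10 were tested, and in wild type 5 rose and 4 fell after DEN. The medians were 0.67 in wild type and 0.59 between genotypes under DEN. Gzmm, a further granzyme gene, had 4, 4 and 2 counts in PBS wild type and 187, 72 and 260 in DEN wild type, with 19 and 29 in DEN knockout and 257 in the library labelled TRIM21+/-. Its pattern was opposite to that of Gzma and Gzmb, with a rise of 5.04 ± 0.47 in wild type (edgeR adjusted p = 2.1e-06) and a value of −2.75 ± 0.42 for the knockout against wild type under DEN (edgeR adjusted p = 0.0017). In the interaction it stood at −3.22 ± 0.79 (edgeR adjusted p = 0.034). Ccl5, a chemokine made by activated T and NK cells, stood at −2.19 ± 0.65 in wild type (edgeR adjusted p = 0.012) and 2.42 ± 0.68 for the knockout against wild type under DEN (edgeR adjusted p = 0.024). Tnfsf10, the death ligand TRAIL, fell by 3.06 ± 0.33 in wild type (edgeR adjusted p = 7.2e-06) and less in knockout, with an interaction of 2.06 ± 0.46 (edgeR adjusted p = 0.027). Without DENKO_141 Gzmm was the one gene of this list still called under DEN, and none passed in the interaction without that library or without DENWT_996.

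Genes that direct T and NK cells were read in the same way. Of 17 cytokine and chemokine genes 9 were tested, and 4 passed in the interaction, all higher. They were Cxcl9, a chemokine for CXCR3+ T cells, Il15, the survival cytokine of NK and CD8+ memory cells, Il18, an inducer of interferon gamma in these cells, and Cxcl12, the ligand of CXCR4. Cxcl9 had 204, 210 and 166 counts in PBS wild type, 151, 193 and 380 in PBS knockout, 24, 22 and 31 in DEN wild type and 301 and 79 in DEN knockout. DEN wild type lay below all other groups, and the 2 DEN knockout libraries were far apart. Cxcl9 fell by 3.48 ± 0.48 in wild type (edgeR adjusted p = 0.00016), and its interaction was 2.68 ± 0.65 (edgeR adjusted p = 0.039). Il15 had 26, 41 and 17 counts in PBS wild type, 16, 13 and 11 in DEN wild type, and 39 and 31 in DEN knockout, with an interaction of 1.92 ± 0.48 (edgeR adjusted p = 0.035). Il18 fell by 2.86 ± 0.19 in wild type (edgeR adjusted p = 1.5e-07) and fell by 1.31 ± 0.20 in knockout (edgeR adjusted p = 0.00049), and the difference of these falls passed at 1.55 ± 0.27 (edgeR adjusted p = 0.011). Of 12 homing receptor genes 11 were tested, 5 of which fell in wild type and 5 of which were higher in the knockout under DEN. Cxcr6, the receptor of liver-resident T and NK cells, fell by 2.14 ± 0.41 in wild type (edgeR adjusted p = 0.00063) and was 1.5 ± 0.45 higher in the knockout under DEN (edgeR adjusted p = 0.03). Without DENKO_141 none of the cytokine genes passed in the interaction and no homing receptor under DEN, and with library totals 1 homing receptor fell and 1 rose in wild type, while without DENWT_996 2 fell, 1 rose and none was higher under DEN. Without DENWT_996, 1 cytokine gene passed in the interaction.

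Markers of other cells were read in the same comparisons, and their part in the results above was not tested. Of 27 genes found in most leukocytes, all tested, 6 fell and 1 rose in wild type after DEN, so the share that fell was no higher than over all tested genes, and with library totals 1 fell and 6 rose. Under DEN 19 were higher in the knockout and none lower. Their summed level was 213 to 261 CPM in PBS wild type, 112 to 181 in DEN wild type and 288 to 312 in DEN knockout. In this sum DEN wild type lay below and DEN knockout above PBS wild type. Lcp1 alone gave 1945, 1975 and 1529 of its 3541, 4967 and 3555 counts in PBS wild type. In DEN wild type Lcp1 gave 941, 881 and 814 of 4331, 3329 and 3280. Its mean was 108 CPM in PBS wild type and 35.8 CPM in DEN wild type, and the sum without it was not tested. In DEN knockout Lcp1 gave 2274 and 1504 of 8083 and 6707 counts. Without DENKO_141, 1 gene of this list was called there, and without DENWT_996, 10. B and plasma cell markers (9 of 15 tested) were higher under DEN in the knockout for 3 genes, with sums of 6.26 to 11.4 CPM in DEN wild type and 20.3 to 22.8 in DEN knockout. Igj, 1 gene of this list, gave 345 and 295 of the 590 and 473 counts summed in DEN knockout. In DEN wild type it gave 181, 80 and 105 of 272, 196 and 184. Dendritic cell markers (4 of 8 tested) were higher for 2, with sums of 6.53 to 7.41 CPM in DEN wild type and 11.9 to 12.5 in DEN knockout. NK receptor sums were 1.84 to 3.09 CPM in DEN wild type and 7.69 to 8.88 in DEN knockout, beside 4.63 to 6.90 in PBS wild type. The higher level in DEN knockout was thus found in lists of several leukocyte classes, although without DENKO_141 no B cell gene and 1 dendritic cell gene were called. No marker of these 4 lists was at 0 in all libraries except Klra4.

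Kupffer cell markers, all 12 tested, fell in 7 cases and rose in 1 after DEN in wild type, with sums of 238 to 551 CPM in PBS wild type and 137 to 297 in DEN wild type. With library totals 4 fell and without DENWT_996 5 fell. In knockout 1 rose and none fell, with sums of 354 to 515 CPM under PBS and 371 to 411 under DEN. Of the 12 values in knockout 10 were negative and 2 positive, with a median of −0.505. Marco, the gene that rose, went from a mean of 5.50 to 56.6 CPM, while Clec4f went from 108 to 51.4 CPM. Kupffer cell sums were 238, 551 and 395 CPM in the PBS wild-type libraries, where Cd4 was at 2.8, 6.0 and 5.0 CPM. In PBS knockout the sums were 354, 515 and 499 CPM, and Cd4 was at 2.3, 5.5 and 1.7 CPM. Both were highest in PBSWT_542 and PBSKO_544. Cd4 was lowest in PBSKO_549, whose sum was close to the highest of its group. Which cells carried Cd4 was not tested. Markers of cells that enter damaged liver went the other way from the lymphocyte genes in wild type. Monocyte markers, all 6 tested, rose in 4 cases in wild type and in 6 in knockout, with sums of 9.62 to 12 CPM in PBS wild type, 16.0 to 48.6 in DEN wild type and 41.6 to 52.9 in DEN knockout. Neutrophil markers, 8 of 13 tested, rose in all 8 cases in wild type and in 3 in knockout. Their sums were 2.82 to 3.94 CPM in PBS wild type, 35.0 to 94.6 in DEN wild type and 56.6 to 70.7 in DEN knockout. Ltf alone gave 1192 and 1206 of the 1466 and 1646 neutrophil marker counts in DEN knockout. In DEN wild type it gave 387, 1707 and 723 of 1108, 2067 and 1028. Between genotypes under DEN no neutrophil marker passed, and 6 values were negative and 2 positive, with a median of −0.61. Ptprc, which these leukocytes carry, did not pass in wild type, where some of these lists rose and others fell.

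Cells other than leukocytes were read last. Of 7 red cell markers 1 was tested, Alas2, the first enzyme of haem synthesis in red cell precursors, while the 4 globin genes were listed at 0 in all libraries. Alas2 had 3083, 3657 and 2745 counts in PBS wild type, 3043, 4125 and 2858 in PBS knockout, 652, 625 and 476 in DEN wild type, 2243 and 1473 in DEN knockout and 489 in the library labelled TRIM21+/-. DEN wild type lay below all other full groups without overlap, and DEN knockout between DEN wild type and PBS. Alas2 fell by 2.96 ± 0.21 with DEN in wild type (SE, edgeR adjusted p = 3e-07) and fell by 1.28 ± 0.23 in knockout (edgeR adjusted p = 0.0016). It was 1.65 ± 0.22 higher in the knockout under DEN (edgeR adjusted p = 9e-04), and its interaction was 1.68 ± 0.29 (edgeR adjusted p = 0.013), lost without DENKO_141. It thus differed between groups in the same directions as Nkg7 and Gzmb in wild type and under DEN. Of 6 sinusoidal endothelial markers 2 rose and 1 fell in wild type, 1 fell in knockout, and none passed between genotypes under DEN. Of 6 hepatocyte markers 2 fell in each genotype, and none passed between genotypes under DEN. With library totals 4 endothelial markers rose in wild type and 1 in knockout, and 1 hepatocyte marker fell in wild type and 1 was lower in the knockout under DEN. Hepatocyte sums were 105400 to 119800 CPM in PBS wild type, 80590 to 107600 in DEN wild type and 74040 to 80500 in DEN knockout.

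**Figure D4:**
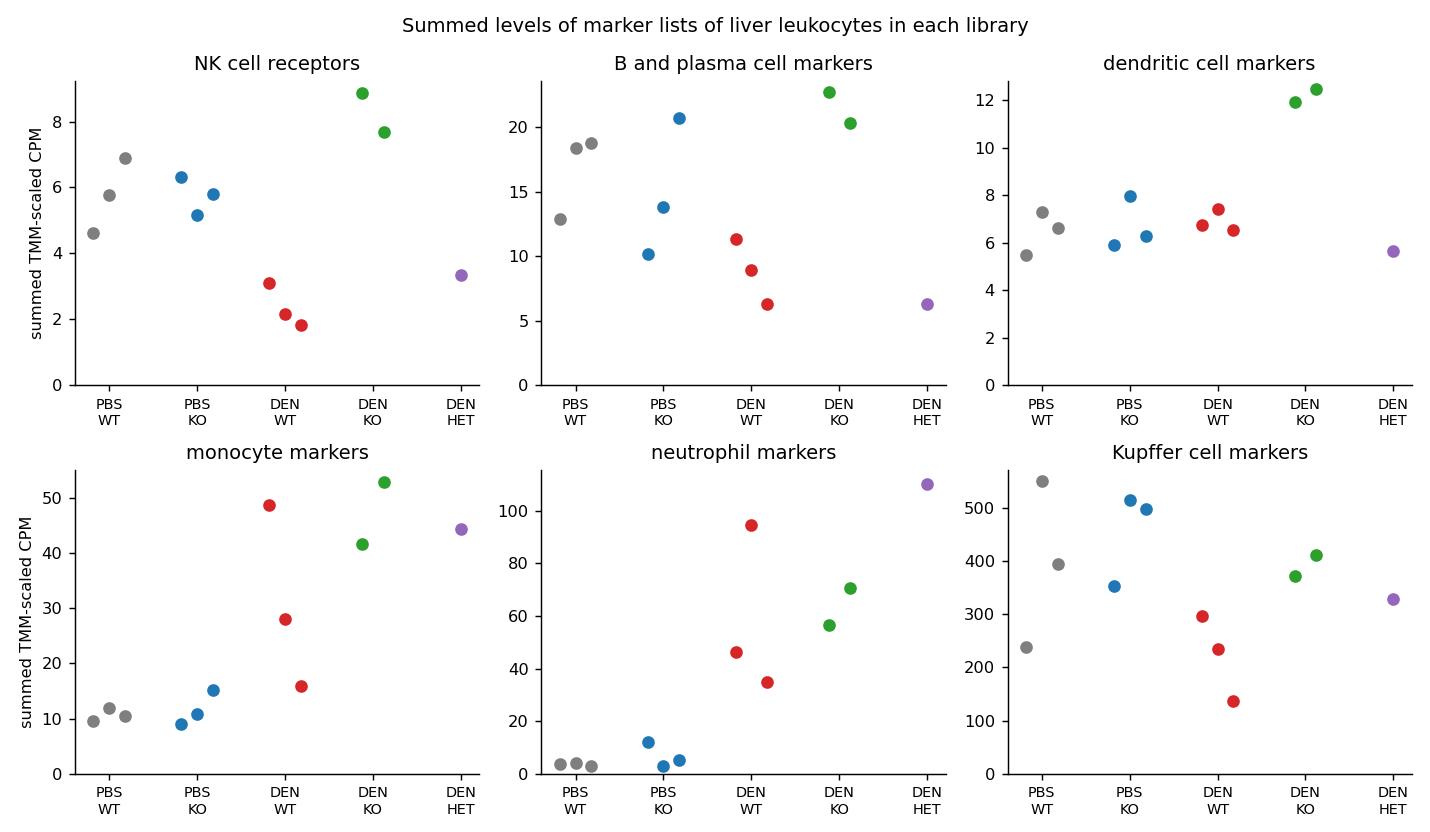
Summed TMM-scaled CPM of 6 leukocyte marker lists is plotted with a point for each library, grouped along the horizontal axis. NK receptor sums are lowest in DEN wild type and the library labelled TRIM21+/-, while neutrophil sums are at most 12 CPM in all PBS libraries and at least 35.0 CPM in all DEN libraries.

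Genes with the most similar pattern were sought among all tested genes, by the root mean square difference of log2(CPM + 0.5) over the 12 libraries after centring. For Ptprc, whose own profile had an SD of 0.52, these were Cotl1 (0.177), Hmha1 (0.195), Axl (0.195), Lrrc25 (0.206) and Ctss (0.206). Ctss, which encodes the lysosomal protease cathepsin S, averaged 29.1 CPM in PBS wild type, 33.6 in PBS knockout, 19.7 in DEN wild type and 47.5 in DEN knockout. Axl, a receptor tyrosine kinase found on macrophages, averaged 17.9, 19.6, 15 and 27.7 CPM in the same groups. For the summed CD3 chains, with a profile SD of 0.54, they were Atp10a (0.178), Rab3il1 (0.199), Rara (0.200), Rgs10 (0.200) and Zmym3 (0.202). With 8 to 41 counts of the CD3 chains per library, counting error makes up part of this likeness, and it describes these 12 libraries only.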

How the data were processed

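Livers of male mice were profiled by RNA sequencing after ribosomal RNA depletion, in 12 libraries. The deposited values are raw counts of reads for each gene symbol, in 1 file per library. The submitters' processing notes name bcl2fastq, TopHat2, HTSeq and the build mm9. Versions, annotation and strand setting were not given in the sources used here, so reads of overlapping or antisense genes cannot be told apart. In a later annotation (GRCm38) Cd3e overlaps the antisense gene Gm48719 and the transcript Gm48720, and Ptprc overlaps A130071D04Rik. None of these is among the symbols counted.

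Each file held 22609 symbols and 5 tally lines, 61.4% to 78.7% of the counts listed, which were left out. Alignments tallied as not unique came to 1.42 to 2.12 per gene count in DEN and 2.38 to 3.54 in PBS libraries. Replicate libraries differed by a chi-square of 24.8 to 83.7 per degree of freedom, so none was a repeat deposit.

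Tests used edgeR 4.0.16 under R 4.3.3, by quasi-likelihood (robust, TMM, filterByExpr by group), in 1 fit of 11 libraries in 4 groups. A gene was called at a Benjamini-Hochberg adjusted p under 0.05 over all 13255 genes tested, within each of 6 comparisons. SEs are the absolute log2 fold change over the root of F. TMM factors were 1.12 to 1.28 in DEN and 0.839 to 0.895 in PBS libraries. CPM values use TMM factors of all 12 libraries. The script was tested on simulated counts. Alternatives were DESeq2 1.42.0, limma-voom (limma 3.58.1), other scalings and filters, the library labelled TRIM21+/- as its own group, no robust option, the compared groups alone, and leaving out each library. Lengths are those of the longest principal transcript in GENCODE for GRCm38, and promoters come from RefSeq for GRCm38.p6.

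The 10 markers and the gene lists were chosen with earlier results of these data known. Named were all markers, Trim21 and, from each list, the 2 genes with the smallest p in each direction in wild type and genes called between genotypes or in the interaction, of which some are given here. Genes alike to Ptprc and to the CD3 sum are the 5 nearest of each.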

Additional observations from a re-analysis of the deposited data

Results flagged for a closer look

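The DEN response of 2 markers differed between the genotypes by a test of the difference itself, the interaction term of the edgeR fit. For Cd8a the log2 difference between the knockout and wild-type responses was 3.25 ± 0.83 (SE, adjusted p = 0.037, with 2 and 3 DEN libraries and 3 and 3 PBS libraries), and over the alternatives that gave one the adjusted p ran from 0.037 to 0.2. For Nkg7 it was 2.89 ± 0.70 (SE, edgeR adjusted p = 0.032), with adjusted p from 0.032 to 0.17 over the same alternatives. DESeq2 gave no adjusted p for either gene. The groups hold at most 3 libraries, which is too few to test for single outlying samples.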

How the results depend on the processing

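Counting depth limits these results, since the 9 markers other than Ptprc had 25 to 209 counts together per library, and DEN knockout had 2 libraries. Results were recomputed under 10 other settings and 11 fits that each omitted 1 library. The falls of Cd3e, Cd4, Nkg7 and Gzmb in wild type passed in all 21. The interaction count of 2 became 1 with limma-voom and 0 with DESeq2, which gave no adjusted p for Cd8a and Nkg7 there. Omitting a library gave 4 to 6 called markers for DEN in wild type (47.2% to 58.1% of all tested genes called), 1 to 3 in knockout (8.83% to 23.8%), 4 to 5 for the mean of both genotypes (45.8% to 55.8%), 0 to 0 for the genotypes under PBS (0.00754%), 0 to 5 under DEN (1.76% to 25.3%) and 0 to 2 for the interaction (0.196% to 8.72%). Without DENKO_141 the lone DEN knockout library is assumed to vary like the other groups. For DEN in knockout the count was 1 without DENKO_309, PBSKO_154, PBSKO_544 or PBSKO_549. The cause of these changes was not tested beyond the smaller number of libraries.

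The sign turned in 16 values, none of which passed. With library totals Ptprc for DEN in wild type stood at 0.205. For the genotypes under PBS, limma-voom gave 0.0549 for Cd3g and −0.0734 for Nkg7, and the fit of 12 libraries −0.00266 for Nkg7. Omitting a library gave −0.465 to 0.618 for Cd3g there, −0.382 to 0.247 for Nkg7, −0.155 to 0.321 for Gzma and −0.953 to 0.0863 for Cd8a. It gave −0.0257 to 0.635 for Nkg7 with DEN in knockout, −0.0293 to 0.57 for Cd8a in the mean of both genotypes, and for Cd3e −0.565 to 2.3 between genotypes under DEN and −0.335 to 2.53 in the interaction. Of the other values of single markers, 913 did not cross the threshold, 6 of which had no adjusted p in DESeq2, 57 lost their call and 6 gained one.

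No paired analysis was possible because no library number occurs in more than 1 group. The fit of the compared groups alone could not be made for the mean of both genotypes and the interaction, which use all 4 groups.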

Other observations

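Siglech, a marker of plasmacytoid dendritic cells, and Itgax, which encodes CD11c, were read among the dendritic cell markers. Itgax had 12, 25 and 13 counts in PBS wild type, 11, 13 and 11 in PBS knockout, 26, 13 and 10 in DEN wild type and 96 and 85 in DEN knockout. The 2 DEN knockout libraries were nearly alike and stood above all others, the library labelled TRIM21+/- with 8 counts included. Itgax rose by 2.51 ± 0.40 on the log2 scale with DEN in knockout (SE, edgeR adjusted p = 0.00069), and its interaction was 3.07 ± 0.57 (edgeR adjusted p = 0.016), which did not pass without DENKO_141. Siglech had 3, 10 and 6 counts in PBS wild type, 2, 9 and 6 in PBS knockout, 4, 1 and 0 in DEN wild type, 27 and 11 in DEN knockout and 0 in the library labelled TRIM21+/-. By library totals Siglech reached the level of the filter in DEN knockout alone, the group where it was highest. It was 3.40 ± 0.80 higher in the knockout under DEN (edgeR adjusted p = 0.011), a call that was lost without DENKO_141. Itgax is also found on macrophages, monocytes and NK cells, and which cells carried it was not tested.

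Among B cell genes, Cd72, a surface inhibitor of B cell receptor signalling, had 38, 66 and 39 counts in PBS wild type, 20, 27 and 16 in DEN wild type, 83 and 50 in DEN knockout and 4 in the library labelled TRIM21+/-. It fell by 1.70 ± 0.34 with DEN in wild type (SE, edgeR adjusted p = 0.00095) and was 1.65 ± 0.36 higher in the knockout under DEN (edgeR adjusted p = 0.0085), the latter lost without DENKO_141.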
